A study of Mus musculus with 8 samples.

Results

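The genes described here are 10 feedback target genes of the WNT/beta-catenin pathway: Axin2, Nkd1, Nkd2, Znrf3, Rnf43, Apcdd1, Lef1, Tcf7, Sp5 and Ccnd1. They were chosen by name as textbook targets of the pathway, with earlier results of these data known. Each was found by symbol among the 46406 genes of an expression table of mouse anterior neural progenitor cells. All 10 reached a mean of 1 FPKM (fragments scaled by gene length and by the mapped fragments of the library) over the 8 libraries and were among the 14521 genes tested. The study removed a poised enhancer (PE), a regulatory element named PE Lhx5(-109), and asked what its loss did to gene expression in these cells. Clone 2 and clone 1 are 2 lines homozygous for the deletion, made in E14 mouse embryonic stem cells by CRISPR-Cas9 cutting with a pair of guides, and each is a single clone with 2 libraries. The wild-type (WT) cells are E14 with no clone label, with 4 libraries. The null group is clone 2 and clone 1 together, with 4 libraries.

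All groups were differentiated in the same way in serum-free N2B27 medium, with 10 ng/ml bFgf until day 3, and were collected on day 5. All of them, WT included, received 5 μM Xav939 from day 2. Xav939 inhibits tankyrase, an enzyme that marks AXIN proteins for destruction, and so lowers WNT/beta-catenin signalling. The levels below were therefore all measured with the pathway under inhibition, and no library without the inhibitor was analysed here.

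In the WNT/beta-catenin pathway a WNT ligand binds a Frizzled receptor with its co-receptor LRP, the complex that destroys beta-catenin is disabled, and beta-catenin enters the nucleus, where it activates genes through TCF/LEF factors. Many of these targets encode inhibitors of the pathway, so their levels are commonly read as a measure of its output. In the early neural plate, low WNT signalling is known to favour forebrain, and higher WNT signalling midbrain and more posterior identities.

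Promoter sequences were examined first, since TCF/LEF factors bind a known motif. RefSeq promoter windows of build GRCm38.p6, from 250 bases before to 50 after a transcription start, held entries for 7 of the 10 genes, in 12 windows. Apcdd1, Ccnd1 and Znrf3 had no entry. The motif letters CTTTGAT and CTTTGAA were searched on both strands, and these motifs do not overlap each other. CTTTGAT was present in 3.73% and CTTTGAA in 5.14% of all 32851 windows. Among the windows of the 7 genes there was 1 match, CTTTGAT in the window of Sp5 on the strand of the gene, from 104 to 98 bases before the start. The 250 bases before the start are shown for Sp5, the member with the widest ratio of mean FPKM between the clones, and for Axin2, the member with the highest level. The motif match is in capitals. Both genes lie on the plus strand.
Sp5, chr2:70474673-70474922: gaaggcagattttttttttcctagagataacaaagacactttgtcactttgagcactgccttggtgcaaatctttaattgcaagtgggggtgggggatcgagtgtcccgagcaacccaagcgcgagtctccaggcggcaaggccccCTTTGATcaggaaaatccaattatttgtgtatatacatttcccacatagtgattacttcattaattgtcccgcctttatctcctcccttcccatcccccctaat
Axin2, chr11:108920099-108920348: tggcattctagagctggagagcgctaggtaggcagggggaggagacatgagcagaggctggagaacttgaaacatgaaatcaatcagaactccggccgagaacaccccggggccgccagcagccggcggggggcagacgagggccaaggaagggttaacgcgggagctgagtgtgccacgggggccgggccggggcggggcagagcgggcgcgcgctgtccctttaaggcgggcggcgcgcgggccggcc
The Sp5 stretch has 46.0% G or C and 6 CpG dinucleotides, and the Axin2 stretch 69.2% and 24. A match of letters is a description and not a binding site, and the lack of a match concerns only these letters in this window.

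The markers Sox2 and Otx2 were present in all 8 libraries, and marker levels differed between the lines. Sox2, a neural progenitor factor, stood at 119 to 138 FPKM in the null libraries and 129 to 140 FPKM in WT, and Otx2, a forebrain and midbrain factor, at 159 to 222 FPKM in the null libraries and 196 to 220 FPKM in WT. Of 8 neural progenitor markers, 4 rose and 1 fell in clone 2, and 0 rose and 4 fell in clone 1. Of 6 anterior neural markers, 5 reached a mean of 1 FPKM and were tested. Of these 5, 0 rose and 4 fell in clone 2, and 0 rose and 1 fell in clone 1. Over all genes tested, 7.06% rose and 6.96% fell in clone 2, and 4.16% rose and 11.4% fell in clone 1. Pou5f1, a pluripotency factor, stood at 10.9 to 14.3 FPKM in clone 2 and 48.5 to 52.4 FPKM in clone 1, against 18.7 to 30.4 FPKM in WT. Gbx2, a factor of the anterior hindbrain, stood at 6.28 to 8.18 FPKM in clone 2 and 0.158 to 0.176 FPKM in clone 1, against 0.938 to 1.96 FPKM in WT. Each of the 6 mesoderm and 4 endoderm markers was below 1 FPKM in all 8 libraries. Lhx5 stood at 1.90 and 1.26 FPKM in clone 2 and 1.24 and 0.854 FPKM in clone 1, against 15.0 to 17.5 FPKM in WT. Clone 1 replicate 2 stood apart in RNA composition, with the non-polyadenylated RNA Rn7sk at 250.2 FPKM against 8.05 to 28.4 FPKM in the other libraries. WT replicate 2 also stood apart from the other WT libraries for several of the genes described here. Mean reads per member in the authors' deposited table ran from 125 for Rnf43 to 3774 for Axin2 in WT, and Sp5, with 179, had the second fewest. The values come from bulk RNA, in which fewer cells of a type and less RNA per cell cannot be told apart.

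**Figure D1:**
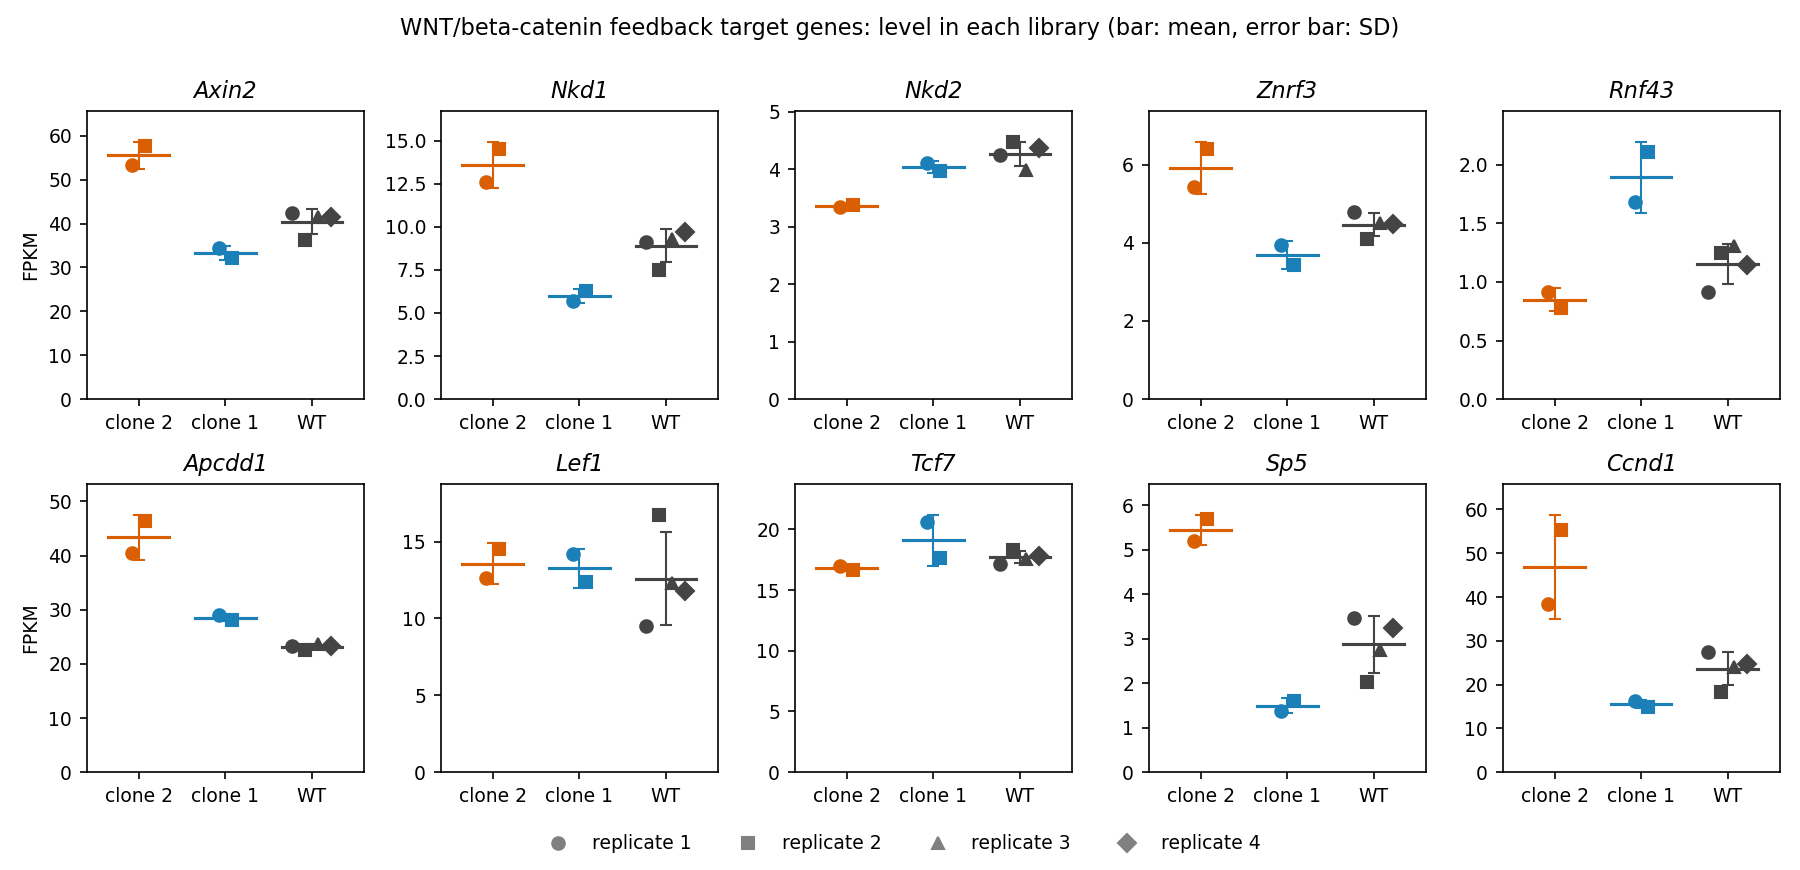
Level of each of the 10 genes in FPKM (vertical axis, from 0) in clone 2, clone 1 and WT. Each symbol is a library, the horizontal bar is the mean and the error bar the SD (n = 2, 2 and 4). Axin2, Nkd1, Znrf3, Sp5 and Ccnd1 are highest in clone 2 and lowest in clone 1, while Apcdd1 is above WT in both clones.

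In WT cells the 10 genes, compared per length, ran over a wide range of levels. Axin2, the beta-catenin destruction scaffold induced by WNT, was highest with 40.4 ± 2.80 FPKM (SD, n = 4 for each WT value). Ccnd1 at 23.6 ± 3.79 FPKM and Apcdd1 at 23.2 ± 0.500 FPKM followed, and their WT libraries overlapped. Tcf7 at 17.7 ± 0.499, Lef1 at 12.6 ± 3.02 and Nkd1 at 8.90 ± 0.965 FPKM came next, and Lef1 and Nkd1 overlapped. Znrf3 at 4.47 ± 0.284 and Nkd2 at 4.27 ± 0.209 FPKM also overlapped, and Sp5 at 2.87 ± 0.633 and Rnf43 at 1.15 ± 0.172 FPKM were lowest. The coefficient of variation among WT libraries was 2.16% for Apcdd1 and 2.82% for Tcf7, against 22.0% for Sp5 and 24.0% for Lef1.

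The members split in the comparison of each clone with WT. Axin2, Nkd1, Znrf3, Sp5, Ccnd1 and Apcdd1 rose in clone 2, and Nkd2 fell. In clone 1, Axin2, Nkd1 and Sp5 fell, whereas Apcdd1 and Rnf43 rose. Of the 10 members, 7 passed limma's test in clone 2 against WT, where 14% of all genes tested passed. In clone 1 against WT 5 of 10 passed, against 15.6% of all genes. The median log2 fold change of the members was 0.39 in clone 2 and -0.14 in clone 1, beside 0 and -0.048 for all genes tested. Both comparisons use the same WT libraries. The counts changed with single libraries: 1 member passed in clone 2 without clone 2 replicate 2, 4 without WT replicate 3 or WT replicate 4, and 0 in clone 1 without clone 1 replicate 2. In clone 1 the count was 3 without clone 1 replicate 1, 2 without WT replicate 1, WT replicate 3 or WT replicate 4, and 3 without clone 1 replicate 2 and WT replicate 2 together.

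Clone 2 against clone 1 tests directly whether lines of the same genotype differed. It gave 7 members past limma's threshold, 6 higher and 1 lower, against 39.9% of all genes, of which 24.9% were higher and 15.0% lower. After rescaling of the libraries by their median ratio, 9 members passed, 6 higher and 3 lower. The members' median was 0.57, beside 0.045 for all genes. Leaving out each of the 8 libraries in turn gave 7 or 8 members. With so few libraries, the p-values reflect only how far libraries of the same line differ, which may be technical. In each clone against WT, a line effect cannot be told apart from an effect of the deletion, because each clone is 1 line.

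**Figure D2:**
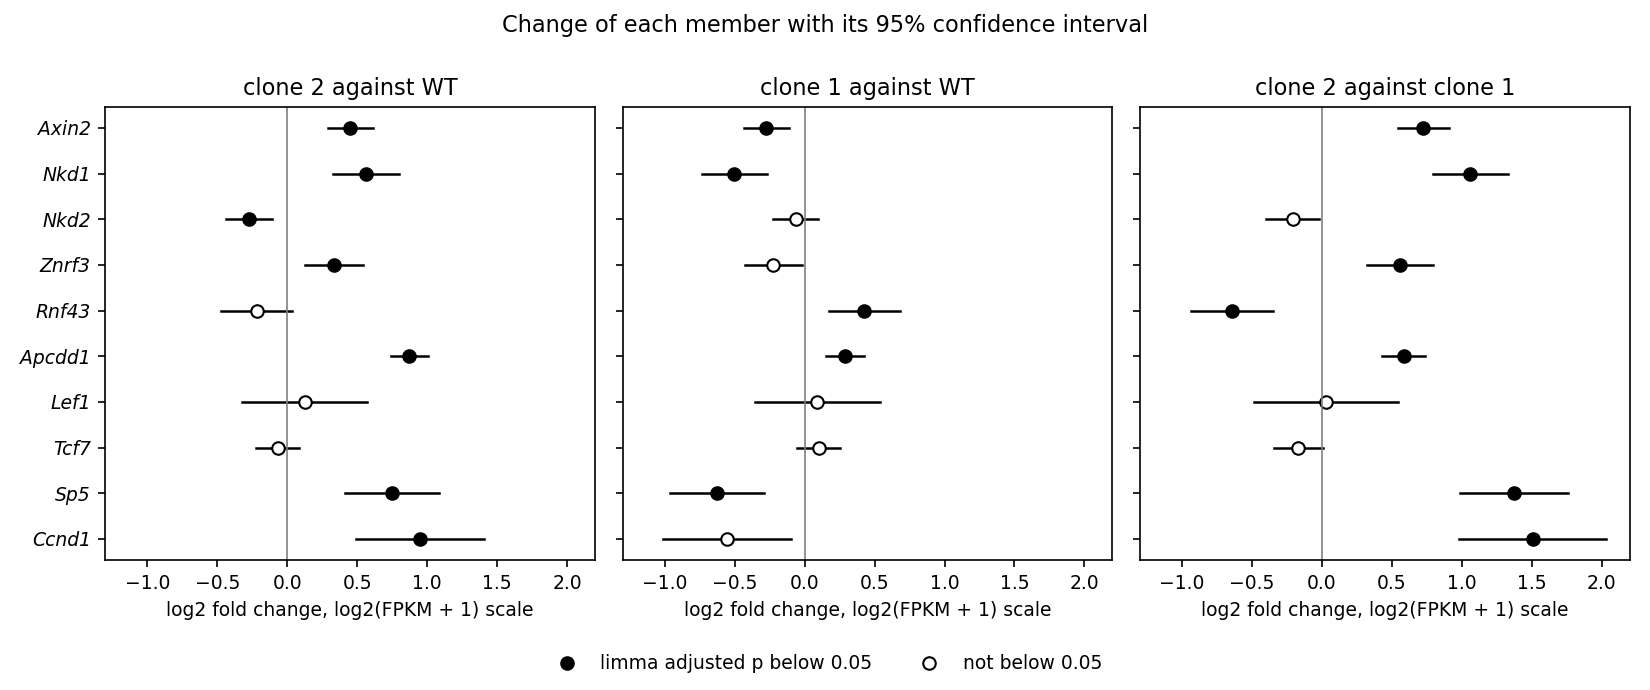
Log2 fold change of each gene on the log2(FPKM + 1) scale (horizontal axis) with its 95% confidence interval from limma, for clone 2 against WT, clone 1 against WT and clone 2 against clone 1. Filled points passed an adjusted p of 0.05. On this scale Ccnd1 and Sp5 show the widest differences between the clones, 1.51 and 1.37. With a pseudocount of 0.1 FPKM their order was reversed, with 1.56 for Ccnd1 and 1.80 for Sp5.

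Inhibitors that act inside the cell come first. Axin2 (ENSMUSG00000000142, chromosome 11, 108920349 to 108950783, plus strand, GRCm38) stood at 53.4 and 57.7 FPKM in clone 2 and 34.4 and 32.1 FPKM in clone 1, against 42.4, 36.3, 41.6 and 41.5 FPKM in WT replicates 1 to 4. Every clone 2 library was above and every clone 1 library below all WT libraries, and no groups overlapped. Its log2 fold change was 0.45 in clone 2 (SE 0.07, limma adjusted p = 0.00831) and -0.27 in clone 1 (SE 0.07, limma adjusted p = 0.0328). Between clone 2 and clone 1 the difference was 0.72 (SE 0.08, limma adjusted p = 0.0005), a 1.67-fold higher mean. The clone 2 call was lost without clone 2 replicate 2 (limma adjusted p = 0.102). The clone 1 call was lost without clone 1 replicate 2 (limma adjusted p = 0.185), without WT replicate 1, 3 or 4 (0.0802, 0.0836 and 0.0856) and after rescaling (0.0792).

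Nkd1 and Nkd2 encode Naked cuticle proteins, which bind Dishevelled and dampen WNT signalling. Nkd1 (chromosome 8, 88521354 to 88594884) stood at 12.6 and 14.5 FPKM in clone 2 and 5.69 and 6.26 FPKM in clone 1, against 9.11, 7.49, 9.32 and 9.67 FPKM in WT. The 3 groups did not overlap. Nkd1 rose by 0.56 on the log2 scale in clone 2 (SE 0.10, limma adjusted p = 0.0143). In clone 1 it fell by 0.50 (SE 0.10, limma adjusted p = 0.0167). Its mean was 2.27-fold higher in clone 2 than in clone 1, a log2 difference of 1.06 (SE 0.12, limma adjusted p = 0.000507). The clone 2 call was lost without clone 2 replicate 2 (limma adjusted p = 0.17), and the clone 1 call without clone 1 replicate 1 or replicate 2 (0.0599 and 0.0735). Nkd2 (chromosome 13, 73818534 to 73847631) did not share this pattern. It stood at 3.34 and 3.38 FPKM in clone 2 and 4.11 and 3.97 FPKM in clone 1, against 4.25, 4.47, 3.99 and 4.38 FPKM in WT. Clone 2 lay below all other libraries, while clone 1 overlapped WT. Nkd2 fell in clone 2 by 0.27 (SE 0.07, limma adjusted p = 0.0387), and that call was lost when any 1 WT or clone 2 library was left out, with adjusted p-values of up to 0.237. In clone 1 its log2 fold change was -0.064 (95% interval -0.23 to 0.098, limma adjusted p = 0.57). Between the clones it was -0.21 (limma adjusted p = 0.074), and it passed there only after rescaling (0.0253).

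Znrf3 and Rnf43 encode transmembrane ubiquitin ligases that remove Frizzled receptors from the cell surface, and they differed between the clones in opposite directions. Znrf3 (chromosome 11, 5276324 to 5444847) stood at 5.43 and 6.39 FPKM in clone 2 and 3.94 and 3.43 FPKM in clone 1, against 4.79, 4.10, 4.50 and 4.48 FPKM in WT. Clone 2 was above and clone 1 below every WT library. Rnf43 (chromosome 11, 87662722 to 87735539) stood at 0.916 and 0.777 FPKM in clone 2 and 1.68 and 2.11 FPKM in clone 1, against 0.912, 1.24, 1.30 and 1.14 FPKM in WT. Clone 1 was above all WT libraries, and clone 2 overlapped WT at WT replicate 1. Clone 2 against clone 1 gave a log2 difference of 0.56 for Znrf3 (SE 0.10, limma adjusted p = 0.00371) and of -0.64 for Rnf43 (SE 0.13, limma adjusted p = 0.00498).

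Against WT, Znrf3 rose in clone 2 by 0.34 (SE 0.09, limma adjusted p = 0.0417), and its change in clone 1 was -0.22 (95% interval -0.43 to -0.017, limma adjusted p = 0.127). Its clone 2 call was lost without clone 2 replicate 2 (limma adjusted p = 0.359) and without WT replicate 1, 2, 3 or 4 (0.0525, 0.0847, 0.0834 and 0.0899). Rnf43 rose in clone 1 by 0.43 (SE 0.11, limma adjusted p = 0.0353), a mean 1.65 times that of WT, and its change in clone 2 was -0.22 (95% interval -0.47 to 0.037, limma adjusted p = 0.225). The clone 1 call of Rnf43 was lost without clone 1 replicate 2 (limma adjusted p = 0.199), which stood apart in RNA composition, and without WT replicate 1, 3 or 4 (0.0797, 0.0617 and 0.0848). It was also lost with a pseudocount of 0.1 FPKM (0.0504), where the log2 fold change was 0.67.

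Apcdd1, on chromosome 18, encodes a membrane-bound inhibitor of WNT signalling that binds WNT ligand and LRP. It was the member that rose in both clones. It stood at 40.5 and 46.3 FPKM in clone 2 and 29.0 and 28.1 FPKM in clone 1, against 23.4, 22.5, 23.7 and 23.2 FPKM in WT. Each null library was above each WT library, and the clones did not overlap each other. The log2 fold change was 0.87 in clone 2 (SE 0.06, limma adjusted p = 0.000213) and 0.29 in clone 1 (SE 0.06, limma adjusted p = 0.0166). Clone 2 was higher than clone 1 by 0.585 (SE 0.07, limma adjusted p = 0.00055). The clone 2 call was kept without each of the 8 libraries, and the clone 1 call was lost without clone 1 replicate 2 (limma adjusted p = 0.0716).

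Lef1 and Tcf7 encode TCF/LEF factors that carry beta-catenin to its target genes and are themselves induced by it. Lef1 (chromosome 3, 131110471 to 131224356) stood at 12.6 and 14.5 FPKM in clone 2 and 14.2 and 12.3 FPKM in clone 1, against 9.53, 16.7, 12.3 and 11.8 FPKM in WT. The null libraries lay within the WT range, whose ends were WT replicate 1 and WT replicate 2. Limma gave 0.12 for clone 2 (95% interval -0.32 to 0.57, adjusted p = 0.707), 0.092 for clone 1 (-0.35 to 0.54, adjusted p = 0.773) and 0.031 between clone 2 and clone 1 (-0.48 to 0.55, adjusted p = 0.932). Against WT, these intervals include changes as large as those of Axin2 in the same comparison. Between the clones, the difference of Axin2 (0.72) lies outside the interval of Lef1. Tcf7 (chromosome 11, 52252371 to 52283014) was measured more tightly. It stood at 17.0 and 16.6 FPKM in clone 2 and 20.6 and 17.6 FPKM in clone 1, against 17.1, 18.3, 17.6 and 17.8 FPKM in WT. Clone 1 replicate 1 was the highest library, and clone 2 lay just below WT. Limma gave -0.069 for clone 2 (95% interval -0.22 to 0.082, adjusted p = 0.523), 0.10 for clone 1 (-0.052 to 0.25, adjusted p = 0.335) and -0.17 between clone 2 and clone 1 (-0.34 to 0.0062, adjusted p = 0.113). Tcf7 was lower in clone 2 than in clone 1 past the threshold without clone 1 replicate 2 (-0.28, limma adjusted p = 0.0163) and after rescaling (-0.22, limma adjusted p = 0.0162).

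Sp5 encodes a zinc finger transcription factor that is a direct WNT target and carries the CTTTGAT match shown above. It lies on chromosome 2, 70474923 to 70477729. It stood at 5.20 and 5.69 FPKM in clone 2 and 1.37 and 1.61 FPKM in clone 1, against 3.46, 2.03, 2.76 and 3.24 FPKM in WT. The groups did not overlap, and WT replicate 2 was the WT library nearest to clone 1. Sp5 rose in clone 2 by 0.75 (SE 0.15, limma adjusted p = 0.0177). In clone 1 it fell by 0.62 (SE 0.15, limma adjusted p = 0.0262). Its mean was 3.65-fold higher in clone 2 than in clone 1, a log2 difference of 1.37 (SE 0.17, limma adjusted p = 0.000722). The clone 2 call was lost without clone 2 replicate 2 (limma adjusted p = 0.177). The clone 1 call was lost without clone 1 replicate 1 or 2 (0.095 and 0.102) and without WT replicate 1, 3 or 4 (0.0587, 0.0613 and 0.0681).

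Ccnd1 encodes cyclin D1, which drives entry into the cell cycle. It lies on chromosome 7, 144929931 to 144939925. It stood at 38.4 and 55.3 FPKM in clone 2 and 16.3 and 14.9 FPKM in clone 1, against 27.3, 18.3, 24.0 and 24.7 FPKM in WT. The groups did not overlap, the clone 2 libraries differed widely from each other, and WT replicate 2 was again nearest to clone 1. Ccnd1 rose in clone 2 by 0.95 (SE 0.19, limma adjusted p = 0.0255), a mean 1.98 times that of WT. In clone 1 its log2 fold change was -0.55 (95% interval -1.01 to -0.099, limma adjusted p = 0.0972). It was -0.67 and past the threshold without WT replicate 2 (limma adjusted p = 0.0293). Between clone 2 and clone 1 the difference was 1.51 (SE 0.22, limma adjusted p = 0.00285). The clone 2 call was lost without clone 2 replicate 2 (limma adjusted p = 0.177), WT replicate 3 (0.0604) or WT replicate 4 (0.0621).

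Some of these genes overlap others in GENCODE M21, and the sources used here do not say whether the counting used strand. LTO1, a protein-coding gene on the opposite strand to Ccnd1, was at 8.53 to 10.8 FPKM over the 8 libraries, and Gm11670, antisense to Axin2, at 0.643 to 1.48 FPKM.

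**Figure D3:**
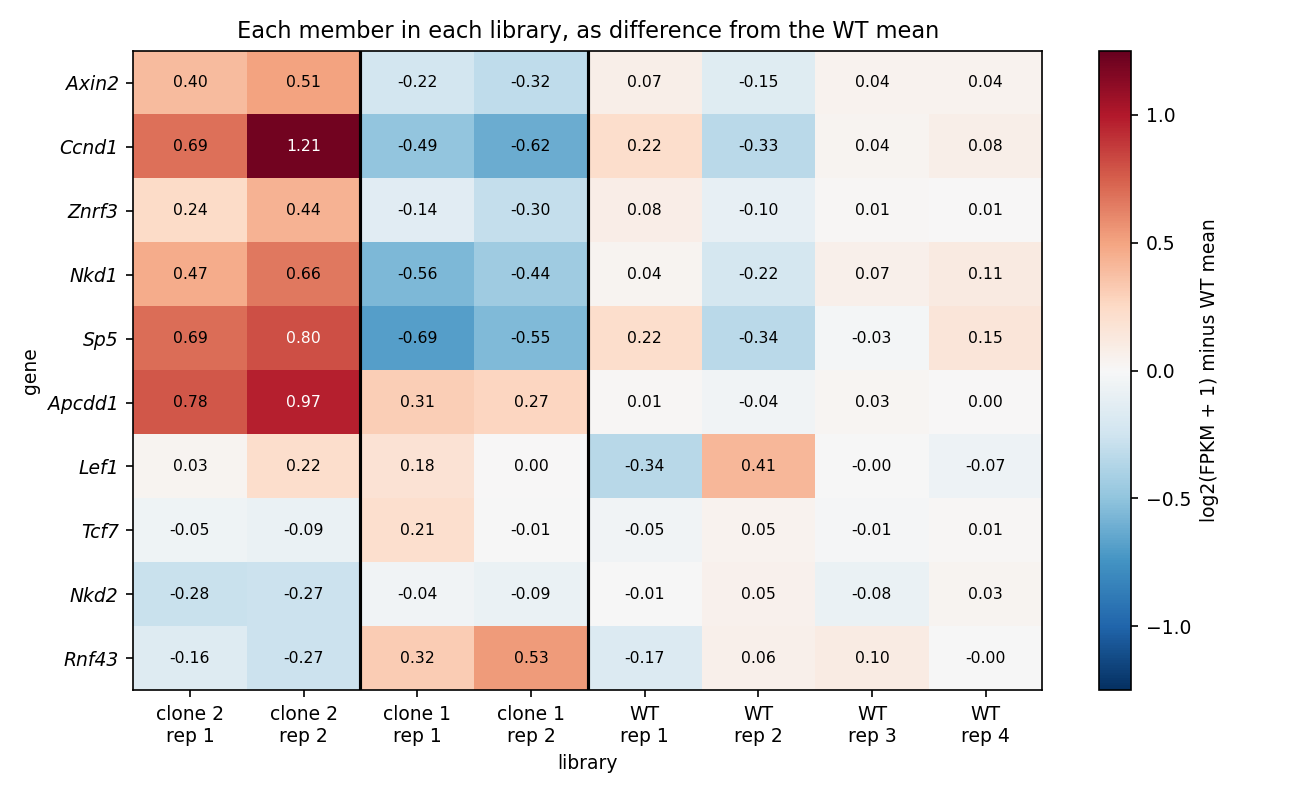
Difference of each gene (vertical axis) in each library (horizontal axis) from the WT mean, on the log2(FPKM + 1) scale. Red is above and blue below the WT mean. WT replicate 2 lies below the WT mean for Axin2, Ccnd1, Znrf3, Nkd1, Sp5 and Apcdd1, with -0.33 for Ccnd1 and -0.34 for Sp5, and above it for Lef1, with 0.41.

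WT replicate 2 was the lowest WT library for Axin2, Nkd1, Znrf3, Apcdd1, Sp5 and Ccnd1, and the highest for Nkd2, Lef1 and Tcf7. Its differences from the WT mean were -0.15 for Axin2, -0.22 for Nkd1 and -0.34 for Sp5 on the log2 scale. The WT libraries spread along some of the same genes that separated the clones. Pearson's r over the 8 libraries was 0.94 to 0.99 for the 10 pairs among Axin2, Nkd1, Znrf3, Sp5 and Ccnd1, which were grouped after their values were seen. It was -0.91 to -0.88 for Rnf43 with these 5, and -0.20 to -0.021 for Lef1. The 8 libraries come from 3 lines, so these correlations mostly follow the means of the lines. Many genes shared the pattern. Among 14520 other tested genes, Ccnd1 ranked 38th in likeness to Axin2 (r = 0.99), Znrf3 113th, Nkd1 221st and Sp5 232nd. The 5 genes most like Axin2, by Pearson's r over the 8 libraries, were Ric8b (r = 0.998), D1Ertd622e, Shmt1, Peg3 and Slc35e3 (r = 0.996 each). Ric8b, which encodes a chaperone of G protein alpha subunits, stood at 29.5 and 31.1 FPKM in clone 2 and 18.7 and 17.4 FPKM in clone 1, against 19.5 to 23.0 FPKM in WT.

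With both clones taken as a single null group, none of the members differed from WT past the threshold. Limma called 0 of 10, where 0.0551% of all genes passed, 0.00689% higher and 0.0482% lower, and 1 of 10 had an unadjusted p under 0.05. That gene was Apcdd1, at 36.0 ± 8.91 FPKM in null cells and 23.2 ± 0.500 FPKM in WT cells (SD, n = 4 each), with a log2 fold change of 0.58 (SE 0.15, limma adjusted p = 0.654). For Axin2 the values were 44.4 ± 13.0 FPKM in null cells and 40.4 ± 2.80 FPKM in WT cells, and the log2 fold change was 0.089 (95% interval -0.35 to 0.53, limma adjusted p = 1). The SD of Axin2 was larger in the null group, whose clones lie on opposite sides of WT. In the authors' deposited table, the fold of null over WT was 1.59 for Apcdd1, with an unadjusted p of 0.000002 from a test that is not stated. For the other 9 members that table gives folds of 0.945 to 1.34 and unadjusted p-values of 0.301 to 0.825.

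Genes for WNT ligands and R-spondins, taken as 1 list, mostly rose in clone 2. Of 18 ligand and R-spondin genes 11 were tested. In clone 2 against WT 9 rose and 0 fell, with a median log2 fold change of 0.74, beside 7.06% of all genes that rose and 6.96% that fell. In clone 1 against WT 1 rose and 5 fell, with a median of -0.35, beside 4.16% of all genes that rose and 11.4% that fell. After rescaling the clone 1 counts were 2 and 4. Wnt1, a ligand of the midbrain-hindbrain boundary, averaged 171 ± 9.09 FPKM in clone 2 and 47.2 ± 5.32 FPKM in clone 1 (SD, n = 2 each), against 98.1 ± 8.81 FPKM in WT (SD, n = 4). Its log2 fold change was 0.80 in clone 2 (limma adjusted p = 0.00453) and -1.04 in clone 1 (limma adjusted p = 0.00184). Wnt3a rose by 1.36 in clone 2 and fell by 0.98 in clone 1, and Wnt5b rose by 0.28 and fell by 0.34. Wnt4 rose by 0.74 in clone 2, and its value in clone 1 was 0.25 (limma adjusted p = 0.125). Without clone 2 replicate 2, 1 gene of this list rose in clone 2. In clone 1, 2 fell without clone 1 replicate 2, and 3 without clone 1 replicate 1, WT replicate 1, WT replicate 3 or WT replicate 4.

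Receptors and transducers were less uniform. Of 16 tested, 1 rose and 4 fell in clone 2, and 0 rose and 7 fell in clone 1, with medians of -0.062 and -0.14. The share that rose in clone 2 was near the 7.06% of all genes, and 6.96% of all genes fell in clone 2 and 11.4% in clone 1. After rescaling the clone 2 counts were 2 and 4. The Frizzled gene Fzd10 averaged 13.5 ± 2.64 FPKM in clone 2 and 1.68 ± 0.234 FPKM in clone 1, against 3.92 ± 0.865 FPKM in WT, and passed in both comparisons (log2 fold changes 1.57 and -0.86, limma adjusted p = 0.00407 and 0.0181). Fzd5, a Frizzled gene of the eye and forebrain, fell by 1.38 in clone 2 (limma adjusted p = 0.0356), and its value in clone 1 was 0.79 (limma adjusted p = 0.131). Fzd1 fell in both clones, by 0.28 and 0.51, as did Lgr4, an R-spondin receptor gene, by 0.47 and 0.27. Fzd4 and Fzd9 fell in clone 1 by 0.56 and 0.71. Without clone 2 replicate 2 the clone 2 counts were 1 and 0, and without clone 1 replicate 2 the clone 1 counts were 0 and 1. Without WT replicate 1, 2, 3 or 4, 1 fell in clone 2. In clone 1, 3 fell without WT replicate 3 and 4 without WT replicate 4.

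Most genes in the list of secreted antagonists encode proteins that bind WNT ligands or their receptors outside the cell. Of 6 tested, 0 rose and 4 fell in clone 2, and 0 rose and 2 fell in clone 1, beside 6.96% of all genes that fell in clone 2 and 11.4% in clone 1. Frzb, which encodes a secreted Frizzled-related WNT binder, fell by 0.63 in clone 2 (limma adjusted p = 0.00171) and 0.30 in clone 1 (limma adjusted p = 0.0155), and Sfrp1, of the same family, by 0.41 and 0.48. Sfrp5 fell by 0.81 in clone 2, and its value in clone 1 was 0.31 (limma adjusted p = 0.102). Without clone 2 replicate 2, 1 antagonist fell in clone 2, and without clone 1 replicate 2, 1 fell in clone 1.

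**Figure D4:**
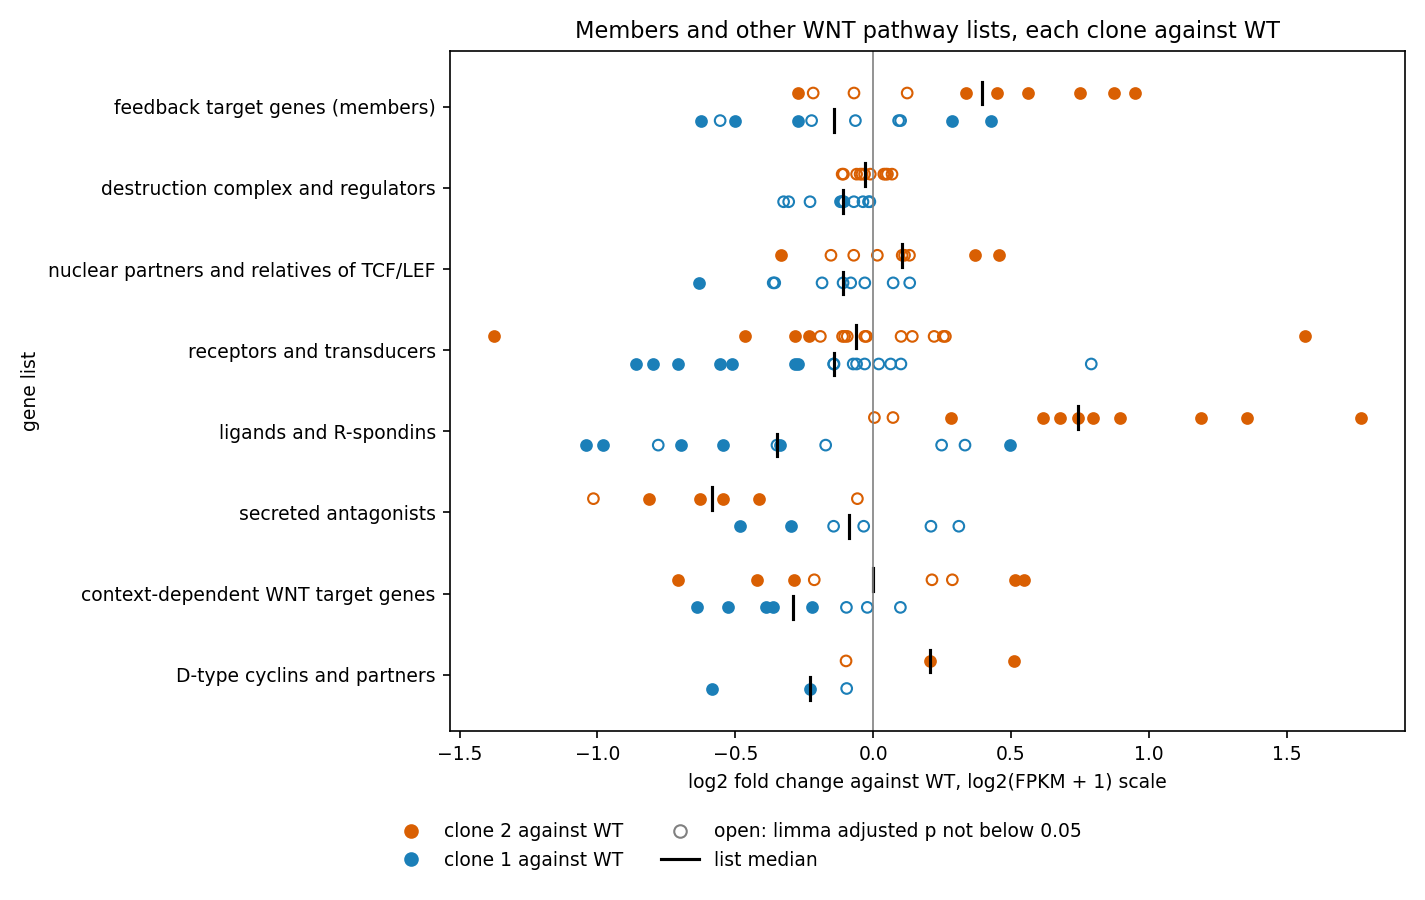
Log2 fold change against WT (horizontal axis, log2(FPKM + 1) scale) of every tested gene in the members and in 7 lists of other WNT pathway genes (vertical axis). Clone 2 is drawn above clone 1 in each list, filled points passed limma's adjusted p of 0.05 and the black mark is the median. Ligands and R-spondins have medians of 0.74 in clone 2 and -0.35 in clone 1, and destruction complex genes -0.031 and -0.11.

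Beta-catenin is degraded by the destruction complex. Of 11 destruction complex genes and regulators, 0 in clone 2 and 4 in clone 1 had an unadjusted limma p under 0.05. Over all 14521 genes tested, 4478 did in clone 2 and 4695 in clone 1. At the adjusted threshold limma called 0 of the 11 in clone 2 and 0 in clone 1, beside 2036 and 2266 of all genes. The clone 1 count was 6 lower without clone 1 replicate 1 and 1 lower without WT replicate 2, and the clone 2 count was 0 without each of the 8 libraries. Clone 2 against clone 1 gave 3 higher and 0 lower, beside 24.9% of all genes that were higher, and 1 higher after rescaling. It gave 6 higher without clone 1 replicate 1, and 0 higher and 2 lower without clone 1 replicate 2. It gave 0 without either clone 2 library, and 1 higher without WT replicate 1, WT replicate 3 or WT replicate 4. Ctnnb1, which encodes beta-catenin, averaged 337 ± 2.69 FPKM in clone 2 and 303 ± 11.4 FPKM in clone 1, against 328 ± 8.82 FPKM in WT. Its log2 fold change was 0.039 in clone 2 (limma adjusted p = 0.498) and -0.11 in clone 1 (limma adjusted p = 0.0595), and clone 2 was higher than clone 1 by 0.15 (limma adjusted p = 0.017). Csnk1a1, the casein kinase that primes beta-catenin for destruction, had a log2 fold change of -0.047 in clone 2 (limma adjusted p = 0.498) and -0.037 in clone 1 (limma adjusted p = 0.594).

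Among 9 tested nuclear partners and relatives of TCF/LEF, 2 rose and 1 fell in clone 2, and 0 rose and 1 fell in clone 1. Over all genes, 7.06% rose and 6.96% fell in clone 2, and 4.16% rose and 11.4% fell in clone 1, so the clone 1 share was near that of all genes. Tle4, a Groucho-family co-repressor gene, averaged 46.0 ± 4.28 FPKM in clone 2 and 22.5 ± 1.23 FPKM in clone 1, against 35.4 ± 2.61 FPKM in WT (log2 fold changes 0.37 and -0.63, limma adjusted p = 0.0217 and 0.00365). Pygo1, a gene of the beta-catenin activator complex, rose by 0.46 in clone 2 (limma adjusted p = 0.0347), with -0.36 in clone 1 (limma adjusted p = 0.068). Tcf7l1, a mostly repressive TCF, fell by 0.33 in clone 2 (limma adjusted p = 0.0159), with -0.19 in clone 1 (limma adjusted p = 0.0805). Without clone 2 replicate 2, 0 of the 9 passed in clone 2. In clone 2, 1 rose without WT replicate 1, WT replicate 2 or WT replicate 3, and 0 without WT replicate 4. In clone 1, 2 fell without clone 1 replicate 1 or WT replicate 2.

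Of 8 tested WNT targets that respond in other settings, 2 rose and 3 fell in clone 2, and 0 rose and 5 fell in clone 1. Among all genes tested, 7.06% rose and 6.96% fell in clone 2, while 4.16% rose and 11.4% fell in clone 1. Tnfrsf19, a receptor gene, averaged 28.8 ± 0.870 FPKM in clone 2 and 13.5 ± 0.279 FPKM in clone 1, against 20.0 ± 2.40 FPKM in WT, and passed in both comparisons (log2 fold changes 0.52 and -0.53, limma adjusted p = 0.0162 and 0.0128). Myc rose by 0.55 in clone 2 (limma adjusted p = 0.00813), with -0.097 in clone 1 (limma adjusted p = 0.455). Sp8, a relative of Sp5, fell by 0.64 in clone 1 and Ephb2 by 0.39, with 0.29 and 0.21 in clone 2 (limma adjusted p = 0.104 and 0.0802). Cd44 fell by 0.71 in clone 2, with 0.099 in clone 1 (limma adjusted p = 0.654). Sox9 fell in both clones, by 0.42 and 0.22. Cdx1, Cdx2, Cdx4 and T, targets of posterior tissue, did not reach the mean of 1 FPKM, nor did Fgf20 or Ascl2. Of 3 tested genes among the other D-type cyclins and their kinase partners, the cyclin gene Ccnd2 rose by 0.51 in clone 2 and fell by 0.58 in clone 1, and the kinase gene Cdk4 rose by 0.21 and fell by 0.23. Without clone 2 replicate 2 none of these 11 genes passed in clone 2, and without clone 1 replicate 2 none passed in clone 1. Of the 8 targets, 3 fell in clone 1 without WT replicate 1 or WT replicate 3. Of the 3 cyclin and kinase genes, 1 rose in clone 2 without WT replicate 2 or WT replicate 3, and 0 without WT replicate 4. In clone 1, 1 of them fell without clone 1 replicate 1, WT replicate 1, WT replicate 3 or WT replicate 4.

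Summed levels of cell identity markers also differed between the clones, in both directions. The summed level of 7 midbrain-hindbrain markers was 130 to 150 FPKM in clone 2 and 57.6 to 60.8 FPKM in clone 1, against 68.6 to 86.8 FPKM in WT. Of these 7, 5 rose and 0 fell in clone 2, and 0 rose and 2 fell in clone 1. Of all genes, 7.06% rose and 6.96% fell in clone 2, and 4.16% rose and 11.4% fell in clone 1. En1, a midbrain-hindbrain homeobox gene, stood at 62.6 and 73.7 FPKM in clone 2 and 18.6 and 20.5 FPKM in clone 1, against 25.6 FPKM in WT replicate 2 and 32.9 to 35.9 FPKM in the other WT libraries. The 6 anterior neural markers summed to 171 to 199 FPKM in clone 2 and 255 to 285 FPKM in clone 1, against 252 to 298 FPKM in WT. Otx2 made up most of each sum, with 173 and 159 FPKM in clone 2, 222 and 199 FPKM in clone 1 and 196 to 220 FPKM in WT. The sums therefore say little about the other genes of this list.

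The 7 pluripotency markers summed to 16.7 to 21.6 FPKM in clone 2 and 63.5 to 69.7 FPKM in clone 1, against 41.5 FPKM in WT replicate 2 and 26.8 to 32.2 FPKM in the other WT libraries. None of them was at 0 in all libraries, and Esrrb, Klf4 and Tdgf1 were below 1 FPKM throughout. The 5 genes listed as surface ectoderm markers (Krt8, Krt18, Cdh1, Epcam and Trp63) summed to 26.2 to 37.7 FPKM in clone 2 and 61.2 to 71.5 FPKM in clone 1, against 33.0 to 48.3 FPKM in WT. Trp63 was below 1 FPKM throughout, so these sums come almost wholly from the other genes. Whether surface ectoderm cells were present was not tested. The 5 neural crest markers summed to 5.72 to 7.13 FPKM in clone 2 and 10.6 to 14.1 FPKM in clone 1, against 6.99 to 9.73 FPKM in WT, with Foxd3 and Snai2 below 1 FPKM. Only 1 of these 5 reached a mean of 1 FPKM and was tested, so the sum is no measure of the list as a whole. The 3 neuron markers in the table summed to 19.4 to 25.2 FPKM in clone 2 and 37.5 to 39.5 FPKM in clone 1, against 32.5 to 40.1 FPKM in WT, with Dcx below 1 FPKM. The 8 neural progenitor markers summed to 463 to 508 FPKM in clone 2 and 373 to 409 FPKM in clone 1, against 447 to 470 FPKM in WT. The part of these differences in identity in the levels of the WNT target genes was not tested.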

How the data were processed

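Poly(A) RNA of 8 libraries was sequenced. Per the file headers, the values of each library are FPKM. For each gene the deposited table gives, besides, a mean of reads in null and in WT (a signal of unstated scaling), a null-to-WT ratio (fold) and a p-value, unadjusted and from a test that is not stated, all made by the authors. Per the submitters' processing notes, the tools were TopHat2, Cufflinks, SAMtools, FastQC and DESeq2, on GRCm38 and mm10, with no role, order or version given. Depth per library is unknown, because the table has no reads per library. Mean reads summed to 26864352 in null and 26693189 in WT, and summed FPKM was 518491 to 528726 per library.

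WT columns were matched to sample titles, and null columns, numbered within a clone, to their clone. The number of per-sample columns not mapped was 0. As the table holds no counts per library, limma 3.58.1 (R 4.3.3) with trend and robust moderation was run on log2(FPKM + 1) of all 14521 genes with a mean of at least 1 FPKM, a scale on which a low gene's change is understated. Benjamini-Hochberg adjustment ran over all genes tested, with a threshold of 0.05. Null against WT used 2 groups, and the clone comparisons a fit of 3 groups that share 1 spread estimate. The fit was tested on simulated data.

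The members, the wider pathway lists and the marker lists were chosen with earlier results of these data known. All 10 members are named. In each wider list, up to 3 genes past the threshold with the smallest adjusted p in each clone are named, or, if none passed, the 1 of smallest p, and the 5 genes most correlated with Axin2. Lhx5, Sox2, Otx2, Pou5f1, Gbx2, En1, Rn7sk and overlapping genes were added as checks. Gene symbols came from the table or, where it gave none, from the gene identifiers. Coordinates are from GENCODE M21 (GRCm38). Whether the libraries of a group came from separate cultures is stated only as biological replicates. Alternatives were a pseudocount of 0.1 FPKM, no filter, median-ratio rescaling, correlated libraries of a line, a replicate block and leaving out libraries.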

Additional observations from a re-analysis of the deposited data

Results flagged for a closer look

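The clones carry the same genotype, and the effect against WT differed between them, in limma's test of clone 2 against clone 1, for 7 members. The log2 difference was 1.51 for Ccnd1, 1.37 for Sp5, 1.06 for Nkd1, 0.72 for Axin2, 0.585 for Apcdd1, 0.56 for Znrf3 and -0.64 for Rnf43 (limma adjusted p = 0.0005 to 0.00498). With the replicate number as a block, Ccnd1 did not pass (limma adjusted p = 0.0689).

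Axin2 in WT replicate 2 stood at 36.3 FPKM, away from the 3 other WT libraries at 41.5 to 42.4 FPKM. Its gap to the nearest of them was 0.859 of the range of the group, past the 95% critical value of Dixon's test for 4 samples. Chance alone flags about 1 in 20 groups, and 20 groups were examined here (10 genes in WT and in null). That rate does not hold for the null groups, because they join both clones, which differ for most members. A single null library can then hardly stand apart. The WT groups share the same libraries and are not independent of each other.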

How the results depend on the processing

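Members past the threshold in clone 1 against WT numbered 5, and 2 without a filter on low values, 3 without clone 1 replicate 2 and WT replicate 2 together (chosen after the values were seen) and 0 to 6 when leaving out 1 library. In clone 2 against WT they numbered 7, and 1 to 7 when leaving out 1 library. With the replicate number as a block the counts were 0 in clone 1, 1 in clone 2 and 6 between the clones. The correlation of the deviations of same-numbered libraries was -0.085 to 0.022. With 2 libraries per clone, the deviations within a clone mirror each other. These few dependent values cannot show whether the libraries were paired. Over all genes the block left 36 calls of 2266 in clone 1, 45 of 2036 in clone 2 and 2995 of 5794 between the clones. Some replicate numbers occur only in WT, so the block leaves few libraries for estimating the spread. This loss of calls therefore says nothing about pairing. Over all genes the counts also moved with single libraries, to 438 in clone 1 without clone 1 replicate 2 and 172 in clone 2 without clone 2 replicate 2. Rescaling moved the split of calls, higher and lower, from 604 and 1662 to 958 and 980 in clone 1, and from 3618 and 2176 to 2959 and 2928 between the clones. Among the recomputed values of single members, 437 kept their direction and side of the threshold, 56 were no longer past it, 5 were newly past it and 22 changed sign, all 22 for values that had not passed.

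The sign changes came mostly from leaving out a library in null against WT, where the log2 fold change ran from -0.050 to 0.23 for Axin2, -0.18 to 0.23 for Nkd1, -0.070 to 0.18 for Znrf3, -0.038 to 0.23 for Rnf43, -0.18 to 0.31 for Sp5, -0.14 to 0.47 for Ccnd1, -0.0061 to 0.24 for Lef1 and -0.049 to 0.049 for Tcf7. In clone 1 against WT it ran from -0.022 to 0.23 for Lef1 and -0.0076 to 0.21 for Tcf7, and between the clones from -0.062 to 0.12 for Lef1. Lef1 between the clones was -0.023 after rescaling and -0.061 without the pair of libraries named above, and Rnf43 in null against WT was -0.017 without that pair. The cause was not tested. Depth per library is unknown, and the members with the fewest mean reads were Rnf43 and Sp5.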
